A study of Mus musculus with 9 samples.

Results

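The nuclear genes for the protein subunits of oxidative phosphorylation were examined in mouse cells sold as pulmonary microvascular endothelial cells (PMVECs), which form the lining of lung capillaries. Members were all protein-coding genes whose GENCODE M21 name begins with Ndufa, Ndufb, Ndufc, Ndufs, Ndufv, Uqcr, Cox4, Cox5, Cox6, Cox7, Cox8 or Atp5, together with Sdha, Sdhb, Sdhc, Sdhd and Cyc1. This rule found 95 members among 56620 features after summing transcripts per gene. They comprised 36 genes of complex I, 4 of complex II, 9 of complex III, 19 of complex IV, 17 of complex V (ATP synthase) and 10 assembly factors that share a name prefix with subunits (Ndufaf1 to Ndufaf8, Atp5s and Cox7a2l). Ndufa4 and Ndufa4l2 carry complex I names and were placed in complex IV, where the Ndufa4 protein is found.

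All 9 libraries were total RNA from commercial primary cells kept for 48 h in 1 of 3 conditions, with 3 libraries each. HO-rWNT5A cells were held at 85% oxygen with 100 ng/ml recombinant WNT5A, a secreted WNT ligand. HO cells were held at the same 85% oxygen without the ligand, and RA cells were held in room air at 21% oxygen. None of these 3 groups received the ligand in room air. Strain, age and passage are not given in the labels, nor whether the replicates were cultured separately. The p-values therefore rest on library-to-library spread alone, part or all of which could be technical.

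Electrons from NADH enter the respiratory chain at complex I and those from succinate at complex II, pass through complex III and cytochrome c, and reduce oxygen at complex IV. Complexes I, III and IV pump protons across the inner mitochondrial membrane, and ATP synthase uses the resulting gradient to make ATP. Most subunits are encoded in the nucleus and the rest in mitochondrial DNA, so every complex but II needs transcripts from both genomes, and the chain is itself a site where oxygen can be reduced to superoxide.

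The values are FPKM, fragments relative to transcript length and to all mapped fragments, summed per gene and scaled so that the median gene has the same level in each library. FPKM is per length, so levels may be set roughly beside each other between genes. Short genes still differed between libraries in a way that longer ones did not, as given below. limma was run across all 9 libraries on log2(scaled FPKM + 1) of the 13831 features with a mean of at least 1 FPKM. A feature was called at a Benjamini-Hochberg adjusted p under 0.05. Of the members, 87 passed the minimum. The other 8 were Cox4i2, Cox6a2, Cox7a1, Cox7b2, Cox8b, Cox8c, Ndufa4l2 and a second Atp5o entry that was listed at 0 in every library. In bulk RNA, fewer cells of a type and less RNA per cell cannot be told apart.

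The labelled cell type was checked against its markers. Of 12 endothelial markers, 4 reached a mean of 1 FPKM. Flt1 and Emcn averaged 37.9 and 10.1 FPKM, while Pecam1, Cdh5 and Vwf averaged 0.093, 0.0543 and 0.0441 FPKM. The summed endothelial markers ranged over 40.9 to 50.6 FPKM in HO-rWNT5A, 48.9 to 56.0 in HO and 51.3 to 55.8 in RA. Of 8 pericyte and smooth muscle markers, 6 reached a mean of 1 FPKM. Acta2, Tagln and Des averaged 1574, 886 and 366 FPKM, and Cspg4, Cnn1 and Pdgfrb averaged 46.3, 36.0 and 15.5 FPKM. Myh11 and Rgs5 averaged 0.236 and 0.757 FPKM. The summed pericyte and smooth muscle markers ranged over 2704 to 3112 FPKM in HO-rWNT5A, 2414 to 3305 in HO and 2945 to 3300 in RA. The sums for fibroblast markers (3 of 6 reached) were 190.0 to 262 FPKM in HO-rWNT5A, 212 to 262 in HO and 263 to 281 in RA. The epithelial sums (4 of 4) were 80.7 to 95.0, 80.6 to 108 and 86.6 to 103 FPKM in HO-rWNT5A, HO and RA, and the leukocyte sums (1 of 4) stayed between 1.38 and 1.86 FPKM. The part of these other markers in the results below was not tested.

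The libraries did not stand equally close to each other. The median member differed from its RA mean on the log2 scale by 0.02, -0.02 and -0.01 in HO-rWNT5A replicates 1, 2 and 3, by 0.16, 0.16 and -0.13 in the HO replicates, and by -0.02, 0.01 and 0.00 in the RA replicates. HO replicates 1 and 2 therefore lay above room air and HO replicate 3 below it. The median SD of a member within a group was 0.073 in HO-rWNT5A, 0.186 in HO and 0.067 in RA, beside 0.075, 0.110 and 0.068 over all 11099 protein-coding genes tested. The counts and medians of the members in comparisons with HO are also given without HO replicate 3.

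Before the values by gene, upstream sequences of 5 members are shown: both genes that passed a test (Cox6b2 and Cox7a2), Sdhd and Atp5k, which had the smallest p of complex II in HO against RA and of complex V in HO-rWNT5A against HO, and Cox6a1, a ubiquitous complex IV gene with 3 kinds of motif. Nuclear respiratory factor 1 (NRF1) and GABP (also called NRF2) are transcription factors known to bind many promoters of this gene family. The sequences are from RefSeq, and each line gives the 120 bases before the start site on the gene's own strand (GRCm38.p6), and the positions are those of the minus strand of chr7:4753095-4753214 for Cox6b2, chr9:79759854-79759973 for Cox7a2, chr9:50603850-50603969 for Sdhd, chr5:115348959-115349078 for Cox6a1 and chr5:108434400-108434519 for Atp5k. Capitals mark matches on either strand to the NRF1 motif (GCGC and TGCGC with any 1 base between them), the GABPA motif CCGGAAG or a CCAAT box.
Cox6b2: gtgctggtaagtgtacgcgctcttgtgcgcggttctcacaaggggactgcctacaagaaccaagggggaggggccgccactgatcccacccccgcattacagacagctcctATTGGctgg
Cox7a2: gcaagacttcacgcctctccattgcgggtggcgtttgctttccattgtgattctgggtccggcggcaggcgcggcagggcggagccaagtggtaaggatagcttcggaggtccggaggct
Sdhd: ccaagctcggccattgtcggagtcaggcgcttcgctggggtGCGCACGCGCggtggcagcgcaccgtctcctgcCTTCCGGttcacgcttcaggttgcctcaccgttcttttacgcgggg
Cox6a1: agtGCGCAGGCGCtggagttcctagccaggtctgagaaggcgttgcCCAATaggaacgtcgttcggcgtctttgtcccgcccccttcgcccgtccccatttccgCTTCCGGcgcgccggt
Atp5k: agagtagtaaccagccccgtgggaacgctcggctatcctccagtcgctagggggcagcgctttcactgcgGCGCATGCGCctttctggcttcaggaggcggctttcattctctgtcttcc
Over windows of 250 bases before to 50 after the start, the NRF1 motif lay in 19 of the 74 members with a RefSeq promoter (25.7%), beside 7.17% of 17492 protein-coding promoters. The GABPA motif lay in 18 (24.3%, beside 12.9%), the YY1 motif AAGATGGC in 10 (13.5%, beside 3.57%), the ERR motif TCAAGGTCA in 2 (2.7%, beside 0.377%) and the CCAAT box in 33 (44.6%, beside 42.3%). The motifs do not overlap each other in the lines shown. A match is a run of letters and not evidence of binding, and the window of Cox7a2 held none of the 5 motifs.

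The family was expressed at very unequal levels. Atp5b, the catalytic beta subunit of ATP synthase, was the highest member at a mean of 361 FPKM over the 9 libraries. Among the other groups, the highest were Cox8a of complex IV at 170.0 FPKM, Uqcrc1, a core protein of complex III, at 93.0, Cox7a2l among the assembly factors at 58.3 and the iron-sulphur subunit Sdhb of complex II at 51.3. The lowest tested were Ndufa5 at 3.34 FPKM in complex I, Sdhc at 19.5 in complex II, Uqcr11 at 21.5 in complex III, Cox5b at 18.0 in complex IV, Atp5k at 1.68 in complex V and Ndufaf2 at 1.59 among the assembly factors. Median levels were 24.4 FPKM for complex I, 37.0 for complex II, 37.0 for complex III, 86.5 for complex IV, 59.5 for complex V and 3.77 for the assembly factors.

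Summed over all members, the family came to 3778, 3651 and 3601 FPKM in HO-rWNT5A, to 4207, 4236 and 3394 in HO and to 3648, 3718 and 3717 in RA. HO held both the 2 highest libraries and the lowest one, and the other 6 libraries lay close together between them. The mean was 3677 ± 90.9 in HO-rWNT5A, 3946 ± 478 in HO and 3694 ± 40.4 in RA (SD, n = 3 each). Of the FPKM of protein-coding genes the members took 1.43, 1.42 and 1.40% in HO-rWNT5A, 1.54, 1.55 and 1.36% in HO and 1.39, 1.43 and 1.41% in RA. The sums by complex placed the HO libraries alike. Complex I summed to 865, 855 and 841 FPKM in HO-rWNT5A, to 972, 934 and 787 in HO and to 847, 859 and 869 in RA. Complex V summed to 1283, 1243 and 1235 FPKM in HO-rWNT5A, to 1419, 1476 and 1174 in HO and to 1249, 1261 and 1265 in RA. In complexes II, III and IV too, HO replicates 1 and 2 were the highest libraries of the 9.

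**Figure D1:**
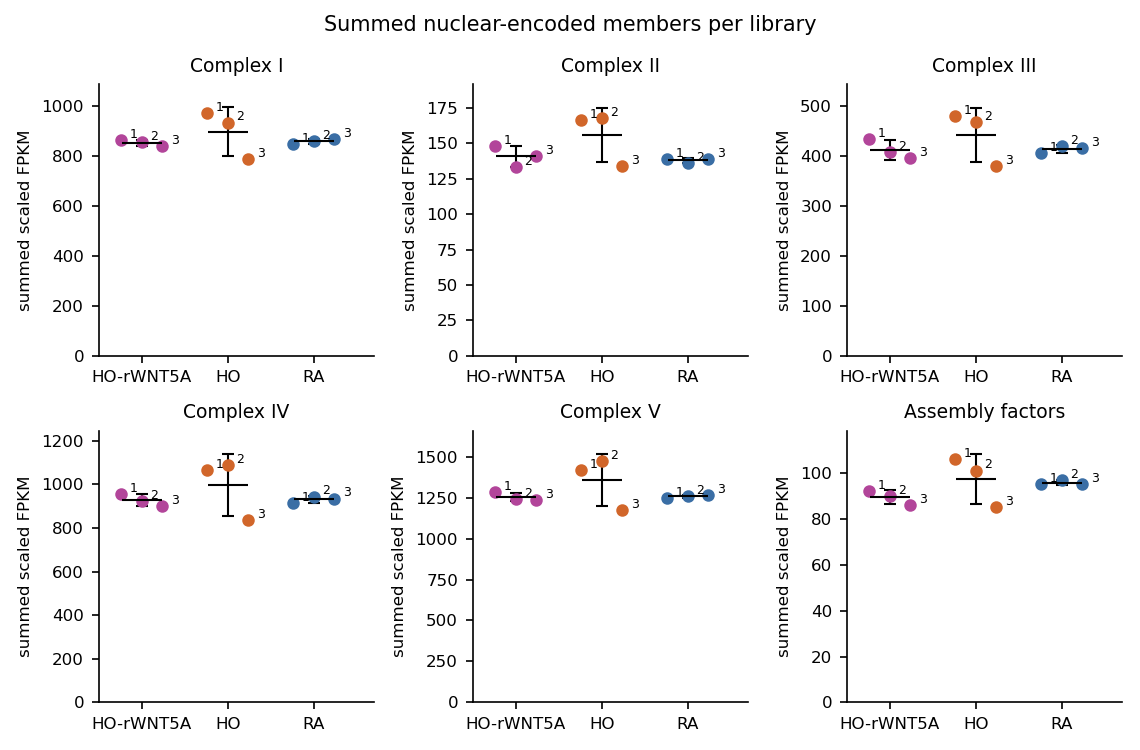
Summed scaled FPKM (vertical axis, from 0) of the members of each complex in every library of HO-rWNT5A, HO and RA; points are libraries with their replicate number, bars are the mean and SD (n = 3). In all 5 complexes HO replicates 1 and 2 lie above HO replicate 3, and the HO-rWNT5A and RA libraries lie close to each other.

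The comparison of HO with RA asks what hyperoxia did to these transcripts. Of the 87 members tested, 1 rose (Cox6b2) and 0 fell, where 1.21% of all features tested were called higher and 0.766% lower. At an unadjusted p under 0.05 there were 12 members with higher values (13.8%) and 0 with lower values, where 9.67% and 8.47% of all features were so placed. A positive fold change was measured for 58 members (66.7%), beside 51.3% of protein-coding genes, and the median log2 fold change was 0.07, beside 0.00 for all features. On FPKM as deposited the members' median was 0.009, where that of all features was -0.057. Groups that did not overlap were found for 9 members with all HO libraries above all RA libraries and for 0 below, where 11.3% and 10.1% of features did so, a share that for the higher direction is near the background.

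By complex, the median log2 fold change of HO against RA was 0.05 in complex I, 0.12 in complexes II and III, 0.11 in complex IV, 0.08 in complex V and -0.06 in the assembly factors. Within complex I the 7 core subunits, those that carry the electron path and its proton-pumping modules, had a median of 0.00 and the 29 accessory subunits 0.06. The 95% interval of a single member reached a median of 0.20 to either side on the log2 scale, which is wider than any of these medians.

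**Figure D2:**
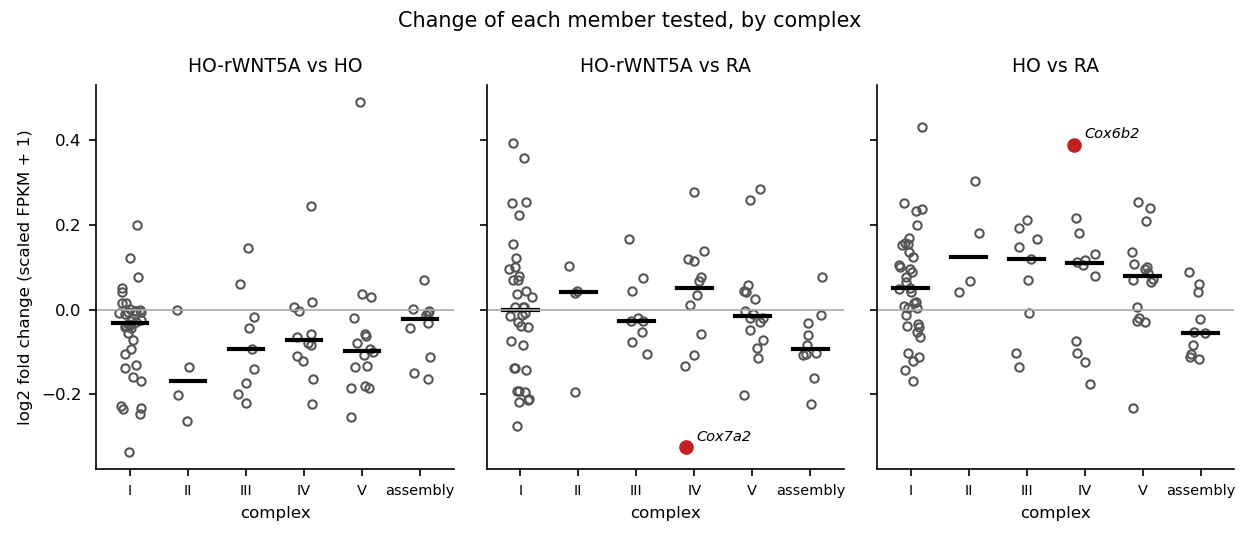
Log2 fold change of scaled FPKM + 1 (vertical axis) of each of the 87 members tested, by complex, for HO-rWNT5A against HO, HO-rWNT5A against RA and HO against RA; bars are medians and filled points passed limma's adjusted p of 0.05. Cox7a2 (-0.33, HO-rWNT5A against RA) and Cox6b2 (0.39, HO against RA) are the only filled points.

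In complex I no member passed limma's test, and at an unadjusted p under 0.05 there were 5 of 36 with higher values in HO against RA (13.9%, beside 9.67% of all features), 5 with lower values in HO-rWNT5A against HO (13.9%, beside 4.66%), and 5 with higher and 2 with lower values in HO-rWNT5A against RA (13.9% and 5.56%, beside 10.8% and 10.1%). Ndufa13, an accessory subunit also known as GRIM-19, had 13.0, 11.4 and 12.1 FPKM in HO-rWNT5A, 12.4, 16.5 and 9.52 in HO and 8.89, 8.98 and 9.17 in RA. Every hyperoxic library lay above every room air library, with HO replicate 3 just above. Its log2 fold change was 0.43 in HO against RA (limma adjusted p = 0.156) and 0.39 in HO-rWNT5A against RA (limma adjusted p = 0.153), the largest positive values of any member in each. An exon of Tssk6 on the opposite strand overlaps Ndufa13 over 375 bases and was at 0.823 FPKM, and since no source used here says that reads were assigned by strand, reads from the overlap cannot be told apart.

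Ndufb10, an accessory subunit of the membrane arm, had 12.1, 13.3 and 11.9 FPKM in HO-rWNT5A, 10.7, 11.1 and 10.2 in HO and 8.02, 9.99 and 10.5 in RA. Summed over transcripts, the HO-rWNT5A libraries lay above all others, and HO overlapped RA. The log2 fold change was 0.36 in HO-rWNT5A against RA (limma adjusted p = 0.0544) and 0.20 in HO-rWNT5A against HO (limma adjusted p = 0.542). Its largest transcript, ENSMUST00000045602, had 7.42, 8.92 and 8.70 FPKM in HO-rWNT5A and 8.30, 6.97 and 6.13 in HO, which overlapped. It had 6.17, 6.72 and 7.23 FPKM in RA. Ndufab1, the mitochondrial acyl carrier protein that also serves fatty acid synthesis, had 24.6, 22.5 and 22.1 FPKM in HO-rWNT5A, 21.2, 25.9 and 21.5 in HO and 19.3, 20.0 and 18.2 in RA, all hyperoxic libraries above room air, with a log2 fold change of 0.24 in HO against RA (limma adjusted p = 0.161).

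Ndufb8, another membrane-arm accessory subunit, had 37.6, 40.8 and 41.8 FPKM in HO-rWNT5A, 46.4, 44.0 and 42.2 in HO and 40.6, 38.8 and 38.2 in RA. All 3 of its HO libraries were above every other library. Its log2 fold change was 0.17 in HO against RA (limma adjusted p = 0.176) and -0.14 in HO-rWNT5A against HO (limma adjusted p = 0.529), and the accessory subunit Ndufa6 had 0.25 in HO against RA (limma adjusted p = 0.173).

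Lower values in HO-rWNT5A were found for other complex I genes. Ndufv2, a core iron-sulphur subunit of the NADH-oxidising module, had 25.5, 25.9 and 25.6 FPKM in HO-rWNT5A, 31.4, 26.3 and 28.8 in HO and 29.9, 30.7 and 29.2 in RA. Its HO-rWNT5A libraries were below all others, with a log2 fold change of -0.21 against RA (limma adjusted p = 0.0904) and -0.16 against HO (limma adjusted p = 0.503). Ndufb5, an accessory subunit, averaged 21.4 ± 0.695 FPKM in HO-rWNT5A, 25.5 ± 3.52 in HO and 26.1 ± 1.26 in RA (SD, n = 3 each), and an opposite-strand exon of Mrpl47 (3.31 FPKM) overlaps it over 530 bases. Its log2 fold change was -0.28 against RA (limma adjusted p = 0.112), with all HO-rWNT5A libraries below all RA libraries. Ndufb2, an accessory subunit which an exon of Braf (7.99 FPKM) overlaps over 146 bases on the opposite strand, had 10.3, 9.29 and 13.6 FPKM in HO-rWNT5A, 14.9, 13.3 and 14.0 in HO and 12.7, 13.3 and 12.5 in RA. HO-rWNT5A replicate 3 lay with the other groups and replicates 1 and 2 below them, and the log2 fold change against HO was -0.34 (limma adjusted p = 0.5).

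Complex II holds 4 subunits and has no mitochondrially encoded one. The catalytic flavoprotein subunit Sdha had 35.9, 34.8 and 37.5 FPKM in HO-rWNT5A, 38.2, 36.5 and 33.7 in HO and 36.5, 33.7 and 34.9 in RA, which overlapped throughout. Sdhb, the iron-sulphur subunit, had 55.6, 46.8 and 47.9 FPKM in HO-rWNT5A, 58.8, 60.0 and 47.2 in HO and 47.3, 48.1 and 49.9 in RA. HO replicates 1 and 2 were its highest libraries and HO replicate 3 lay beside room air.

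The split within HO was also seen in both membrane anchors. Sdhd had 38.2, 34.1 and 39.3 FPKM in HO-rWNT5A, 45.2, 49.1 and 35.5 in HO and 34.9, 34.3 and 34.3 in RA, with a log2 fold change of 0.31 in HO against RA (limma adjusted p = 0.161). Sdhc had 18.0, 17.3 and 16.7 FPKM in HO-rWNT5A, 23.8, 22.7 and 17.1 in HO and 20.3, 19.9 and 19.8 in RA. HO replicate 3 was thus within the HO-rWNT5A range for Sdhc, and the log2 fold change in HO-rWNT5A against HO was -0.26 (limma adjusted p = 0.503).

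In complex III, Uqcrfs1, the Rieske iron-sulphur protein, had 36.4, 34.0 and 33.8 FPKM in HO-rWNT5A, 42.3, 43.7 and 36.3 in HO and 35.8, 35.7 and 34.7 in RA. Its HO libraries were above all RA libraries. The log2 fold change was 0.19 in HO against RA (limma adjusted p = 0.185) and -0.22 in HO-rWNT5A against HO (limma adjusted p = 0.5). Cyc1, the cytochrome that passes electrons on to cytochrome c, had 36.8, 33.7 and 33.1 FPKM in HO-rWNT5A, 38.1, 38.5 and 30.8 in HO and 30.7, 30.7 and 30.5 in RA. All hyperoxic libraries exceeded room air, HO replicate 3 by little, and the log2 fold change in HO against RA was 0.21 (limma adjusted p = 0.211). The core proteins Uqcrc1 and Uqcrc2 averaged 89.5 and 45.1 FPKM in HO-rWNT5A, 99.0 and 51.0 in HO and 90.6 and 48.5 in RA.

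In complex IV, Cox6b2, the isoform of subunit 6B first known from testis, had 39.8, 41.2 and 37.5 FPKM in HO-rWNT5A, 39.8, 46.6 and 42.0 in HO and 34.6, 32.9 and 29.7 in RA. All 6 hyperoxic libraries lay above all 3 room air libraries, and the lowest HO value belonged to replicate 1. Its log2 fold change in HO against RA was 0.39 (SE 0.075, 95% interval 0.22 to 0.56, limma adjusted p = 0.0338). In HO-rWNT5A against RA it was 0.28 (limma adjusted p = 0.065), and in HO-rWNT5A against HO the groups overlapped. The call in HO against RA was lost in 12 of 23 alternative settings, with limma adjusted p from 0.0254 to 0.183, among them leaving out any RA library, HO replicate 2 or any HO-rWNT5A library.

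The ubiquitous partner Cox6b1 had 99.3, 96.3 and 91.0 FPKM in HO-rWNT5A, 110.0, 107 and 83.6 in HO and 100.0, 105 and 110.0 in RA, so its groups overlapped. As a share of the pair, Cox6b2 made up 28.6, 29.9 and 29.2% in HO-rWNT5A, 26.6, 30.3 and 33.4% in HO and 25.7, 23.9 and 21.2% in RA. The share was higher in every hyperoxic library than in any room air library, and it does not depend on the scaling of libraries. It was highest in HO replicate 3, the library with the lowest family total. The FPKM of Cox6b2 was divided over several annotated transcripts, of which ENSMUST00000182111 was the largest, with 16.6, 13.2 and 14.3 FPKM in HO-rWNT5A, 12.8, 16.7 and 11.2 in HO and 9.29, 9.96 and 9.32 in RA.

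Other tissue isoforms of complex IV were near 0. Cox4i2, the isoform of subunit 4 known from lung and from low oxygen, took 0.161 to 0.513% of the Cox4i1 and Cox4i2 sum over all 9 libraries. Cox7a1, the heart and muscle isoform, took 0.158 to 0.549% of the sum with Cox7a2. Ndufa4l2, known as a target of hypoxia-inducible factor, took at most 0.255% of the sum with Ndufa4 and was listed at 0 in all 3 HO libraries, and Cox6a2, the muscle isoform of subunit 6A, took at most 0.0741% of the sum with Cox6a1. Cox7b2 and Cox8b were listed at 0 in every library, and Cox8c was above 0 in HO replicate 2 alone, at 0.127 FPKM.

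Cox7a2, the ubiquitous isoform of subunit 7A, was the other member to pass a test. It had 80.1, 82.1 and 78.3 FPKM in HO-rWNT5A, 102, 92.5 and 86.9 in HO and 103, 96.6 and 103 in RA. All HO-rWNT5A libraries lay below all other libraries, and HO overlapped RA. Cox7a2 fell in HO-rWNT5A against RA by 0.33 on the log2 scale (95% interval -0.47 to -0.18, limma adjusted p = 0.0265). In HO-rWNT5A against HO its log2 fold change was -0.22 (limma adjusted p = 0.5), the smallest p of any member in that comparison. The call against RA was lost in 7 of 22 alternative settings, with limma adjusted p from 0.00632 to 0.102, among them leaving out any RA or any HO-rWNT5A library. Nearly all of its FPKM lay in 1 transcript, ENSMUST00000034881, with 78.9, 80.7 and 76.9 FPKM in HO-rWNT5A, 101, 91.5 and 86.3 in HO and 101, 94.4 and 101 in RA.

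The remaining complex IV genes did not pass in any comparison. Cox4i1, the main isoform of subunit 4, had 137, 128 and 138 FPKM in HO-rWNT5A, 135, 182 and 117 in HO and 129, 131 and 133 in RA, where HO spanned both extremes. Cox8a, a small membrane subunit, had 183, 161 and 153 FPKM in HO-rWNT5A, 213, 184 and 148 in HO and 157, 171 and 164 in RA. Cox6a1, whose upstream sequence is shown above, had 92.7, 82.9 and 78.7 FPKM in HO-rWNT5A, 91.0, 106 and 71.8 in HO and 74.7, 84.9 and 74.8 in RA. In all 3 genes HO replicate 3 was the lowest library of the 9. Cox5a, which together with subunit 4 faces the matrix, averaged 89.7 ± 4.22 FPKM in HO-rWNT5A, 95.3 ± 13.5 in HO and 81.5 ± 4.55 in RA (SD, n = 3 each), with a log2 fold change of 0.22 in HO against RA (limma adjusted p = 0.250). Cox7b averaged 35.2, 34.9 and 38.0 FPKM in HO-rWNT5A, HO and RA, and Ndufa4 56.1, 56.6 and 53.1.

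**Figure D3:**
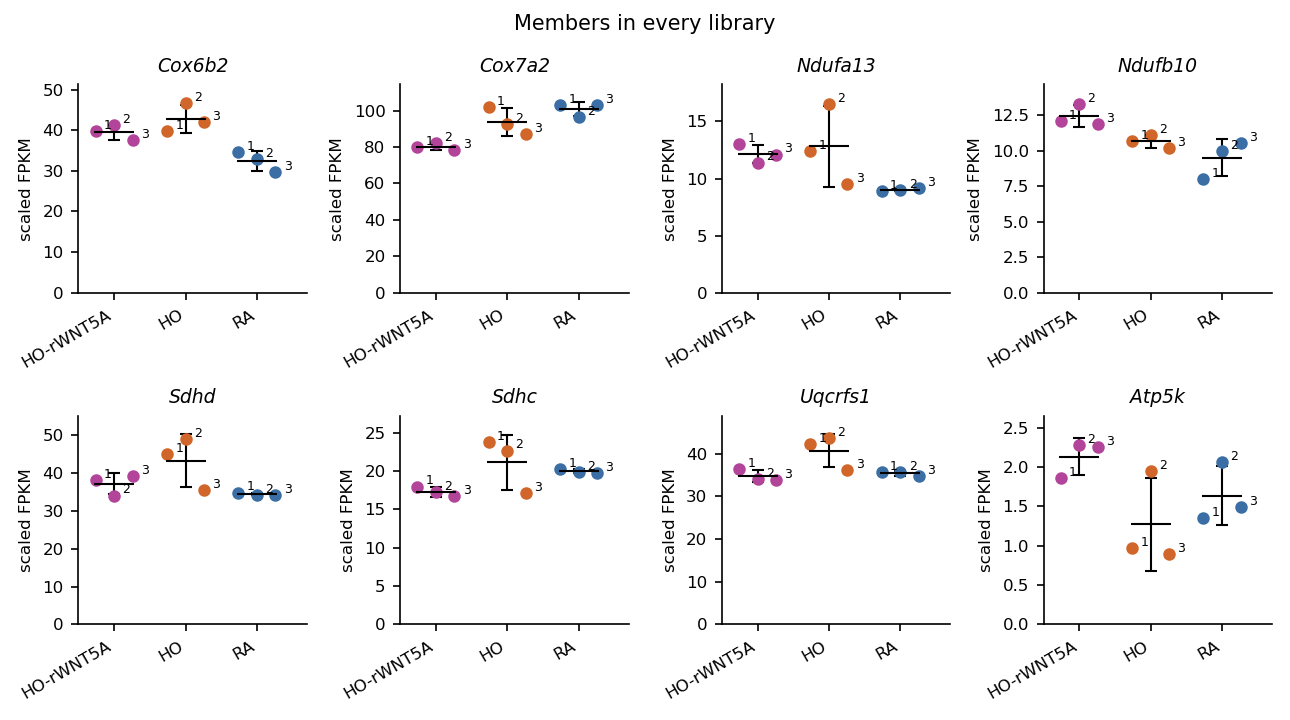
Scaled FPKM (vertical axis, from 0) of 8 members in every library of HO-rWNT5A, HO and RA; points are libraries with their replicate number, bars are the mean and SD (n = 3). Cox6b2 is higher in all 6 hyperoxic libraries than in RA, Cox7a2 is lowest in the 3 HO-rWNT5A libraries, and Sdhd, Sdhc and Uqcrfs1 show HO replicate 3 apart from HO replicates 1 and 2.

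In complex V, Atp5b had 370.0, 356 and 352 FPKM in HO-rWNT5A, 395, 405 and 327 in HO and 350.0, 351 and 345 in RA, with HO at both extremes. Atp5a1, the alpha subunit of the same catalytic head, had 146, 139 and 141 FPKM in HO-rWNT5A, 169, 198 and 145 in HO and 147, 143 and 139 in RA, with a log2 fold change of 0.24 in HO against RA (limma adjusted p = 0.214) and -0.25 in HO-rWNT5A against HO (limma adjusted p = 0.5). Atp5mpl, a small membrane subunit, had 66.7, 64.0 and 64.5 FPKM in HO-rWNT5A, 81.1, 78.0 and 64.3 in HO and 61.6, 64.4 and 65.8 in RA. In both genes HO replicate 3 lay among the room air libraries.

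Atp5k, the membrane subunit e, had 1.86, 2.28 and 2.26 FPKM in HO-rWNT5A, 0.967, 1.95 and 0.895 in HO and 1.35, 2.06 and 1.49 in RA. It was the lowest gene of the complex, its log2 fold change of 0.49 in HO-rWNT5A against HO was the largest positive one of that comparison (limma adjusted p = 0.5), and the groups overlapped. Subunit c, which forms the rotor ring, is encoded by 3 genes for the same mature protein. Atp5g3 gave 53.6 to 57.1% of their summed FPKM in HO-rWNT5A, 50.5 to 56.9% in HO and 50.8 to 55.1% in RA, Atp5g2 gave 28.7 to 32.6% over all libraries and Atp5g1 the rest, so the makeup overlapped between groups.

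Among the assembly factors caught by the rule, Cox7a2l, which joins complexes III and IV into supercomplexes, had 56.3, 55.0 and 52.4 FPKM in HO-rWNT5A, 66.9, 65.7 and 52.3 in HO and 59.9, 57.3 and 59.0 in RA. The other 9 lay between 1.59 and 5.79 FPKM on average. Among the 10, fold changes of HO against RA were positive for 3 and negative for 7, and those of HO-rWNT5A against RA were positive for 1 and negative for 9 (median -0.09), with no call. Atp5s, also called factor B, had 3.03, 3.57 and 2.99 FPKM in HO-rWNT5A, 3.56, 2.92 and 4.19 in HO and 3.54, 4.38 and 3.79 in RA.

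**Figure D4:**
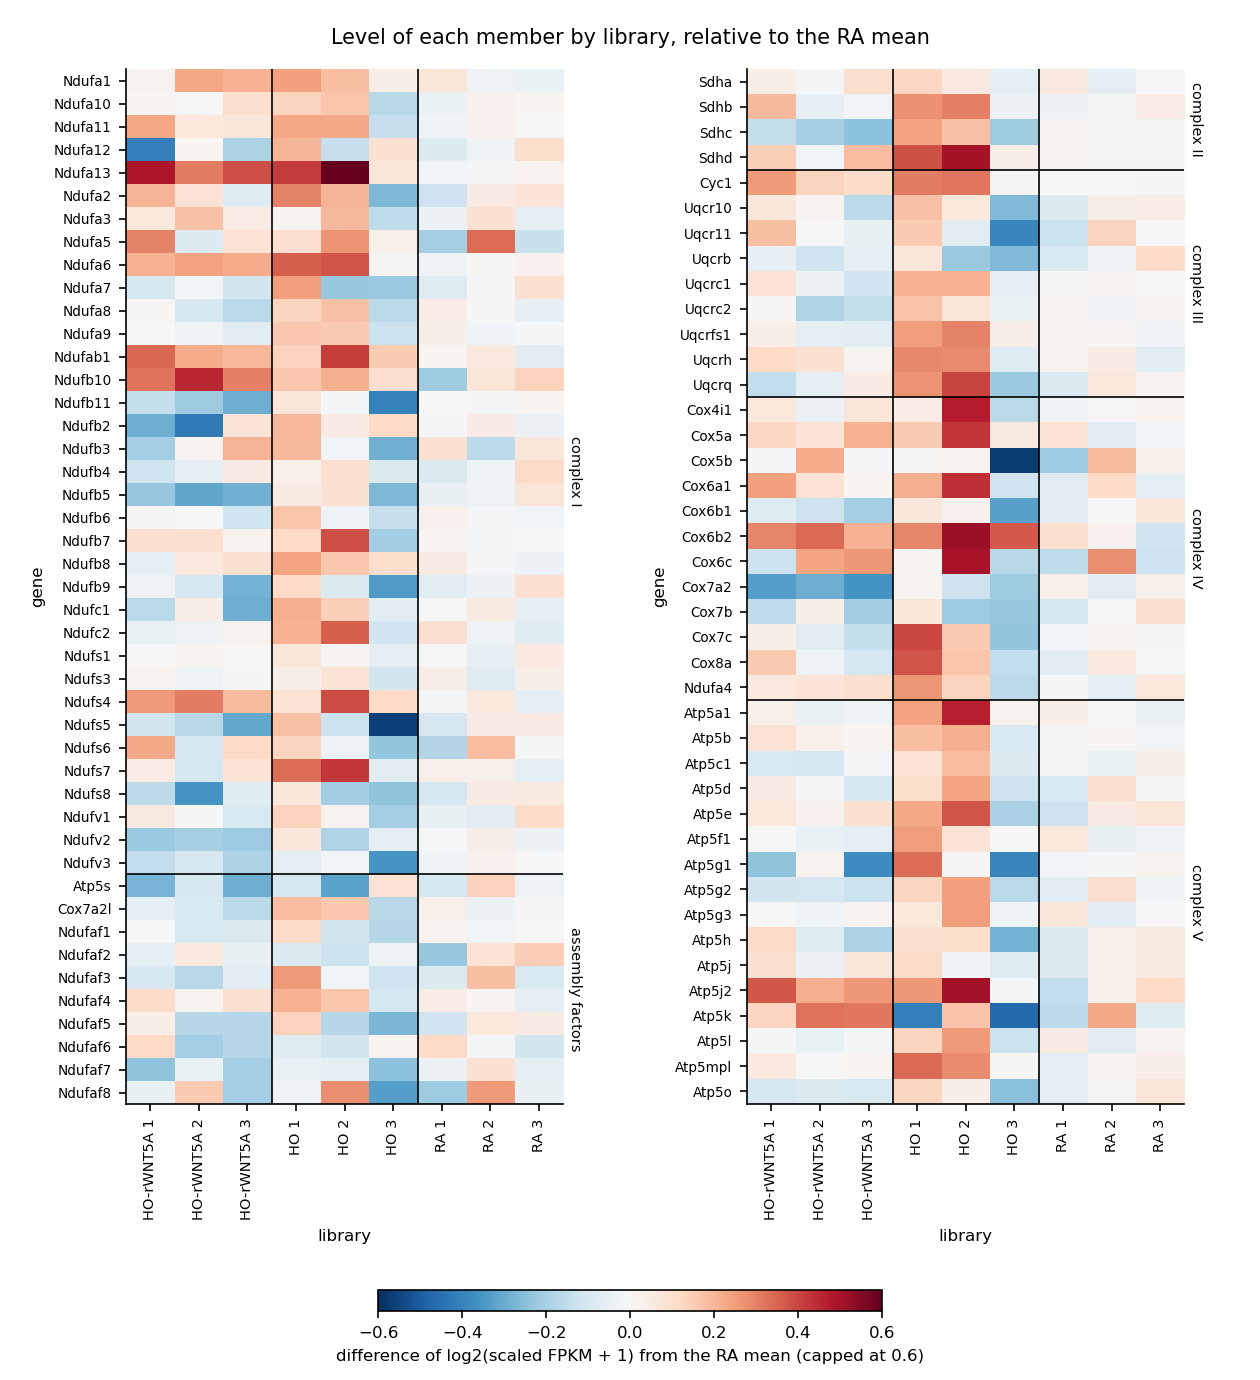
Difference of log2(scaled FPKM + 1) from the RA mean (colour, red above and blue below) for 86 members tested (rows, by complex) in each library of HO-rWNT5A, HO and RA (columns). Most rows are red in HO replicates 1 and 2 and blue in HO replicate 3, while the HO-rWNT5A columns hold red and blue rows in similar number.

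The comparison of HO-rWNT5A with HO asks what the added ligand did under the same oxygen. No member passed limma's test, where 0.0% of features were called higher and 0.00723% lower. At an unadjusted p under 0.05 there were 1 member with higher values (Atp5k, 1.15%) and 11 with lower values (12.6%), where 4.53% and 4.66% of all features were so placed, and the lowest limma adjusted p was 0.5. Fold changes were negative for 69 members and positive for 18, with a median of -0.06 beside 0.00 for all features. All HO-rWNT5A libraries lay above all HO libraries for 1 member (Ndufb10) and below for 3 (Cox7a2, Ndufv2 and Ndufb8), where 6.27% and 6.7% of features did so, and both shares were under the background. By complex the medians were -0.03, -0.17, -0.09, -0.07 and -0.10 for I to V and -0.02 for the assembly factors. The 3 HO-rWNT5A libraries all lay between the lowest and the highest HO library in 51 of 87 members (58.6%), beside 29.0% of protein-coding genes and 44.0% of the other ones of at most 1000 bases.

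In HO-rWNT5A against RA, 0 members rose and 1 fell (Cox7a2), where 2.39% and 1.87% of features were called. At an unadjusted p under 0.05 there were 7 members with higher values (8.05%) and 3 with lower values (3.45%), both under the 10.8% and 10.1% of all features. The median log2 fold change was -0.01, with 39 positive and 48 negative. Groups did not overlap for 11 members with HO-rWNT5A higher and 11 lower (12.6% each of 87), where 16.3% and 16.5% of features did so. Besides those already described, Ndufs4, an accessory subunit at the base of the NADH-oxidising arm, had 16.6, 17.2 and 15.8 FPKM in HO-rWNT5A and 13.6, 14.4 and 13.2 in RA (log2 fold change 0.25, limma adjusted p = 0.114). This comparison and the one of HO with RA share the RA libraries, and the one of HO-rWNT5A with HO shares libraries with both.

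The split among the HO libraries is set here beside all protein-coding genes and beside the 655 other protein-coding genes of at most 1000 bases, since 51 of the 87 members are of that length. HO replicates 1 and 2 were both above every RA library in 48 of 87 members (55.2%), beside 23.8% of protein-coding genes and 31.8% of the short ones. HO replicate 3 was the lowest of the 3 HO libraries in 77 members (88.5%, beside 40.5% and 75.7%) and below every RA library in 60 (69.0%, beside 35.4% and 62.6%). Both patterns together held for 31 members (35.6%), beside 5.53% of protein-coding genes and 16.6% of the short ones. Members share their libraries, so these counts describe the libraries and are no test.

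Gene length moved with the same split. Among the 655 other protein-coding genes of at most 1000 bases, weighted by transcript FPKM, the median difference from the RA mean was 0.10, 0.06 and -0.19 in HO replicates 1, 2 and 3. Among the 10357 longer ones it was 0.01, 0.01 and 0.00. Members are mostly short, 51 of the 87 at most 1000 bases, and these had medians of 0.14, 0.16 and -0.16. The 36 longer members had 0.18, 0.16 and -0.08. Short and longer members were thus alike in HO replicates 1 and 2, while in HO replicate 3 the longer members lay nearer the RA mean. With the trend of level with length removed from each library, the median of the members in HO against RA was 0.06, against 0.07 without that step. Small structural RNA took 23.4 to 28.1% of the FPKM of the HO-rWNT5A libraries, 27.4, 26.5 and 20.1% of that of HO replicates 1, 2 and 3, and 21.4 to 25.0% of that of the RA libraries. Retained-intron transcripts took 8.30 to 8.66% of the FPKM outside small structural RNA in HO-rWNT5A, 7.56, 7.16 and 8.88% in HO replicates 1, 2 and 3, and 8.07 to 8.79% in RA. By this measure HO replicates 1 and 2 lay apart from the other 7 libraries. Of the members' own FPKM they took 6.70 to 7.05% in HO-rWNT5A and 6.80 to 6.99% in RA. In HO replicates 1, 2 and 3 they took 6.38, 8.23 and 8.37% of it. By that measure HO replicates 2 and 3 lay above all other libraries and HO replicate 1 below them. The part of gene length and of RNA makeup or quality in the split was not tested.

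**Figure D5:**
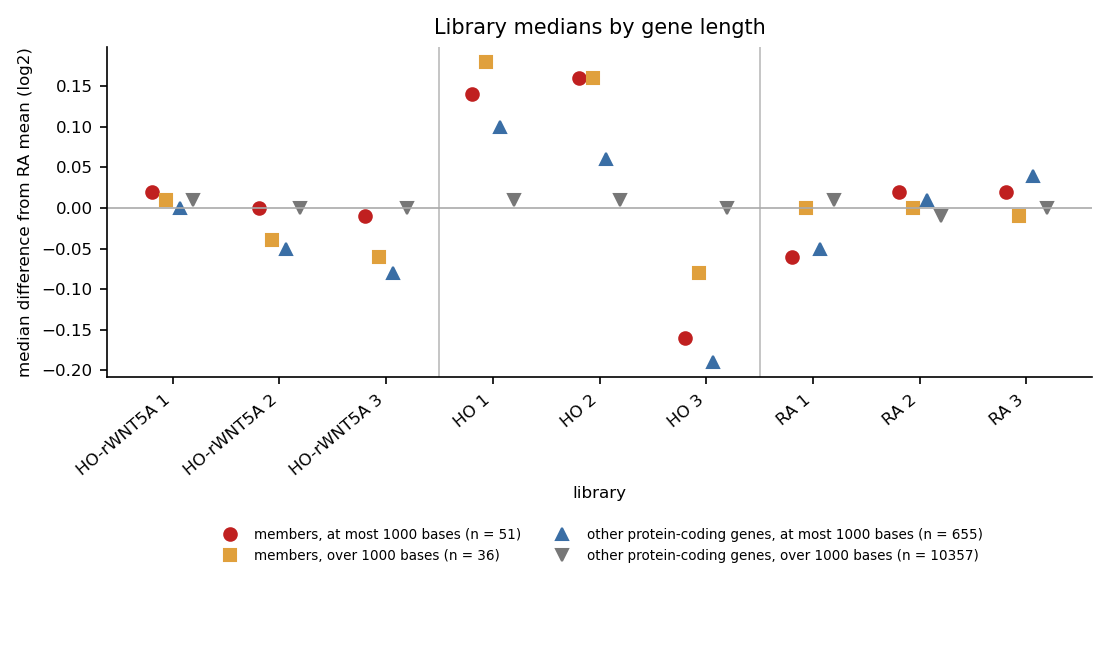
Median difference from the RA mean on the log2 scale (vertical axis) in each library for members and other protein-coding genes, split at a length of 1000 bases. Short and long members and other short genes are above 0 in HO replicates 1 and 2 and below 0 in HO replicate 3, while the other long genes stay between -0.01 and 0.01.

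HO replicate 3 was seen to stand apart from the members' own values, so the fits without it are descriptions that depend on that choice and not independent tests. With the other 8 libraries, 13 members passed limma's threshold in HO against RA with higher values and 0 with lower values, against 1 without HO replicate 1 and 0 without HO replicate 2. Over all features, 706 of 13807 were called without HO replicate 3, 225 of 13854 without HO replicate 1 and 107 of 13877 without HO replicate 2. Without replicate 3, 3.0% of features were called higher and 2.11% lower, the members' median was 0.16 and 75 of 87 were positive. By complex the medians were then 0.14, 0.25, 0.21, 0.25 and 0.17 for I to V and -0.01 for the assembly factors. The 13 were Ndufa13, Ndufa6, Ndufc2 and Ndufs7 of complex I, Sdhd of complex II, Cyc1, Uqcrfs1, Uqcrh and Uqcrq of complex III, Cox6b2 of complex IV and Atp5a1, Atp5e and Atp5mpl of complex V. Their log2 fold changes lay between 0.27 (Uqcrfs1) and 0.61 (Ndufa13), and Sdhd had 0.44 (limma adjusted p = 0.0181). Ndufc2, Ndufs7, Uqcrq and Atp5e are named here for these calls alone, after their values were seen.

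Leaving out the same library, in which Sdhc was lowest of HO, Sdhc was the only member past the threshold in HO-rWNT5A against HO (log2 fold change -0.40, limma adjusted p = 0.0367). In that fit 0.0362% of features were called higher and 0.159% lower, and the members' median was -0.16. Without HO replicate 1 or 2, 0 members passed, where 1 of 13854 and 3 of 13877 features were called. In HO-rWNT5A against RA, leaving out HO replicate 3 changes the shared spread and hardly the means. With that library left out, 3 members passed with higher values (Ndufa13, Ndufa6 and Ndufb10) and 4 with lower values (Cox7a2, Ndufb5, Ndufb11 and Sdhc), where 3.89% and 3.48% of features were called. In the same comparison 1 member passed without HO replicate 1 and 6 without HO replicate 2, where 628 of 13854 and 822 of 13877 features were called. Leaving out HO replicate 1 or 2 in place of replicate 3 gave medians of 0.01 in HO against RA for both, so the size of the family's median in HO rested on which HO library was left out.

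Of the 13 partner subunits encoded in mitochondrial DNA, limma called 0 in each of the 3 comparisons, and in HO against RA 2 had higher and 3 had lower values at an unadjusted p under 0.05 (15.4% and 23.1%, beside 9.67% and 8.47% of all features). Fold changes of HO against RA were positive for 6 and negative for 7, with a median of 0.00. mt-Nd6, a complex I subunit and the only one encoded on the light strand, had 475, 419 and 448 FPKM in HO-rWNT5A, 518, 911 and 558 in HO and 170.0, 361 and 358 in RA. All hyperoxic libraries were above room air, and the log2 fold change of HO against RA was 1.19 (95% interval 0.56 to 1.82, limma adjusted p = 0.0632). mt-Nd5, another complex I subunit, which lies beside mt-Nd6 on the other strand, had 300.0, 274 and 311 FPKM in HO-rWNT5A, 351, 589 and 375 in HO and 163, 258 and 272 in RA (log2 fold change 0.92, limma adjusted p = 0.062). No source used here says that reads were assigned by strand, so the values of mt-Nd5 and mt-Nd6 may not be independent of each other. mt-Nd3 had lower values, 24.9, 21.4 and 25.9 FPKM in HO against 28.2, 30.5 and 36.6 in RA (log2 fold change -0.38, limma adjusted p = 0.0857). The summed mitochondrial mRNA ranged over 4562 to 5032 FPKM in HO-rWNT5A and 4593 to 5268 in RA, and was 5299, 5139 and 4904 in HO replicates 1, 2 and 3. HO replicate 3 was again the lowest HO library, but it lay within the RA range, whereas in the nuclear sum it lay below all RA libraries.

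Among 12 regulators of mitochondrial biogenesis, 10 were tested. Esrra, the estrogen-related receptor alpha that activates respiratory genes, had 17.5, 17.1 and 17.1 FPKM in HO-rWNT5A, 17.6, 17.4 and 17.0 in HO and 12.9, 14.1 and 13.8 in RA. The hyperoxic libraries were all above room air, and HO replicate 3 was not apart. Esrra rose in HO against RA by a log2 fold change of 0.33 (95% interval 0.21 to 0.44, limma adjusted p = 0.0195) and in HO-rWNT5A against RA by 0.32 (limma adjusted p = 0.0118), and these calls were lost in 6 of 23 and 3 of 22 alternative settings, the first with any 1 RA library left out (limma adjusted p from 0.0694 to 0.0802) and the second without RA replicate 1 (0.0569) or HO-rWNT5A replicate 2 (0.052), and both with equal totals (0.132 in HO against RA and 0.0909 in HO-rWNT5A against RA). Without HO replicate 3 the call in HO against RA remained (limma adjusted p = 0.0189). Tfb1m, the methyltransferase that modifies the RNA of the small mitochondrial ribosomal subunit, had 1.62, 1.48 and 1.55 FPKM in HO-rWNT5A, 1.76, 1.60 and 1.86 in HO and 2.22, 2.24 and 2.21 in RA. It fell in HO-rWNT5A against RA by 0.34 on the log2 scale (limma adjusted p = 0.0393), a call lost in 10 of 21 settings, among them leaving out any RA or HO-rWNT5A library (limma adjusted p from 0.0862 to 0.139).

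Nrf1, the factor whose motif is marked above, had 14.0, 15.9 and 13.7 FPKM in HO-rWNT5A, 13.2, 14.4 and 14.8 in HO and 11.8, 12.4 and 12.0 in RA, with a log2 fold change of 0.21 in HO against RA (limma adjusted p = 0.147). The coactivator Ppargc1a was under the minimum at a mean of 0.187 FPKM. limma called 0 genes in all 3 comparisons among 37 tested of 39 assembly factors outside the rule, 14 citrate cycle enzymes and 6 genes of electron carriers and supply. At an unadjusted p under 0.05 in HO against RA there were 1 higher and 1 lower of the assembly factors, 0 higher and 1 lower of the citrate cycle enzymes and 1 higher and 0 lower of the carriers, where 9.67% of all features were higher and 8.47% lower. In HO-rWNT5A against HO, 1 of the 37 assembly factors had higher values and 6 had lower values (2.7% and 16.2%, beside 4.53% and 4.66% of all features). In HO against RA the smallest p of these lists belonged to Cox19, a copper-handling assembly factor of complex IV (log2 fold change 0.26, limma adjusted p = 0.0576), to Suclg2, a subunit of succinyl-CoA ligase (-0.22, limma adjusted p = 0.182), and to Etfdh, which feeds electrons from fatty acid oxidation to ubiquinone (0.19, limma adjusted p = 0.172). Cycs, the mobile cytochrome c itself, averaged 15.0 ± 0.463 FPKM in HO-rWNT5A, 16.0 ± 0.669 in HO and 16.0 ± 0.261 in RA (SD, n = 3 each).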

How the data were processed

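The deposited table held FPKM per transcript for 143043 transcripts in 9 libraries. Per the labels' protocols, reads of total RNA libraries were trimmed with Skewer 0.2.2, aligned with STAR 2.5.3a and assembled with StringTie 1.3.1. The submitters' processing notes list the builds hg38 and mm10 without roles. Of the Ensembl mouse identifiers, 99.36% were found in GENCODE M21. FPKM hides counts, so depth is unknown here and no count test was run. FPKM was summed per gene, and libraries were scaled by the median ratio to the geometric mean over genes of at least 1 FPKM. Testing used log2(scaled FPKM + 1), which understates changes of low genes, with limma 3.58.1 (R 4.3.3), moderated variances that follow the mean level, two-sided p adjusted over all 13831 features, and was tested on simulated data.

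The members and gene lists were chosen with earlier results of these data known. Members named are those that passed a test, up to 3 of smallest p per complex in HO against RA and in HO-rWNT5A against HO, the highest and lowest per complex (1 member is not reported here), and isoforms and complex II subunits whatever their value. Of other lists, genes past the threshold or of smallest p are named. Ndufb8, Ndufb10, Ndufb11, Ndufs4, Ndufv2, Nrf1, Ppargc1a and Cycs were added after their values were seen. Alternatives were other pseudocounts, filters, scalings and variance models, removal of a length trend, a replicate block, and left-out libraries.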

Additional observations from a re-analysis of the deposited data

How the results depend on the processing

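The count of members past the threshold in HO against RA was 1, where 273 of 13831 features were called. It became 0 with no filter (69 of 33928 features called), with equal totals (56 of 13831), with no variance trend (204 of 13831) and with only the 2 groups compared (64 of 13868). It was 2 with the length trend removed (431 of 13282). Leaving out 1 library gave counts of 0 to 13, where 2 to 706 of all features were called. Without HO replicates 2 and 3, which leaves 1 HO library, the members' median in HO against RA was 0.155. In HO-rWNT5A against HO the count stayed at 0 but for the fit without HO replicate 3 (range 0 to 1 over left-out libraries), and the median of the members, -0.056, ranged over -0.158 to -0.015 and was -0.168 without HO replicates 2 and 3. In HO-rWNT5A against RA the count of 1 became 0 with no filter, 2 with a mean of at least 5 FPKM or with FPKM as deposited, 4 with protein-coding totals or the length trend removed, 11 with only the 2 groups compared, and 0 to 7 over left-out libraries. Over all features, 589 of 13831 were called in HO-rWNT5A against RA in the main fit. That count was 509 of 8379 with a mean of at least 5 FPKM and 824 of 13831 with FPKM as deposited. It was 761 of 11099 with protein-coding totals, 803 of 13282 with the length trend removed and 1328 of 13875 with only the 2 groups compared. Over left-out libraries it ranged from 124 to 1018. The cause of these shifts was not tested. FPKM as deposited moved the median of all features to -0.057 in HO against RA and -0.062 in HO-rWNT5A against RA, and the members' median in HO against RA to 0.009.

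The labels do not say whether replicate numbers pair the libraries. Between libraries of the same number in different groups, the correlations of deviations from the group means ran from -0.12 to 0.28, which cannot settle it. With the replicate block the counts of members were 1, 0 and 1 as before, where 116, 2 and 393 of 13831 features were called. The call of Tfb1m was lost with it (limma adjusted p = 0.0698). Of the values of named genes under the alternatives, 2905 kept their side of the threshold without turning, 38 lost the call, 28 gained it and 0 turned. Turning meant the opposite sign with a call in either fit or both beyond 1 SE. Smaller changes of sign are therefore among the 2905. Unknown depth limits what can be said of Atp5k, the assembly factors and isoforms near 0.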
